A study of Mus musculus with 9 samples.

Results

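The collagen family was taken as every protein-coding mouse gene whose symbol in the GENCODE M21 annotation (GRCm38) has the form Col, a number, the letter a and a number. Of 44 such genes, 43 were among the 14779 genes of the deposited table, and Col28a1 was not analysed here. They comprised 11 fibrillar chains, 6 basement membrane chains, 6 beaded filament chains, 9 fibril-associated chains, 2 multiplexins, 3 network-forming chains, 4 transmembrane collagens and, outside these classes, Col7a1 and Col26a1. Of the 43 genes, 42 passed the filter on low counts; Col6a6, with 86 counts over all libraries, did not and was left out of the tests.

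Collagens are secreted or membrane-anchored proteins whose chains wind around each other into a rigid helix, and the class of a chain sets where the finished protein goes: fibrillar collagens build cable-like fibrils, type IV collagens form the sheet of basement membranes around vessels, and fibril-associated collagens decorate the surface of fibrils. Brain tissue has little fibrillar collagen outside the meninges and vessel walls. Some non-fibrillar members are made by neurons, among them collagen XIX, which takes part in the formation of inhibitory synapses in the hippocampus, and collagen XXV, a transmembrane collagen whose shed part was found in amyloid plaques.

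The libraries came from hippocampus dissected from mice of 3 groups of 3, as the series' design text states. Air+IgG mice had air as the control exposure and received a control IgG (treatment labelled iso). CIE+IgG mice received the same IgG and CIE, the usual abbreviation for chronic intermittent ethanol, which the labels do not spell out, and CIE+IL17 Ab mice received CIE and an antibody against IL-17A. The 2 CIE groups differ in the antibody, and no group had the IL-17A antibody without CIE. The sources used here do not give strain, sex, age, or the dose and time of the treatments. Each library is 1 mouse, so p-values rest on the spread between mice within groups of 3. In the main fit this spread was estimated from all 9 libraries together and in part shared across genes. Libraries outside a comparison therefore also affect its p-values.

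Total counts ran from 7372658 to 11894628 per library. In 2 libraries, Air+IgG 2 and CIE+IL17 Ab 1, Lars2 reached 79820 and 68804 CPM (a gene's share of the library's counts, scaled to a fixed total and by TMM, trimmed means of the ratios between libraries), against 35.2 to 205.2 in the other 7. The label of the tissue was checked against markers: Neurod6, a transcription factor of hippocampal pyramidal neurons, had 89.6 to 185.4 CPM in the 6 IgG libraries but 1.11, 1.57 and 46.9 CPM in CIE+IL17 Ab 1, 2 and 3. A list of 9 CA1 markers summed to 576.3 to 901.3 CPM in the IgG libraries and to 196.9 to 378.1 CPM with the antibody, and a list of 13 measured thalamus and habenula markers summed to 215.4 to 433.6 CPM and to 1348 to 2217 CPM. The libraries labelled CIE+IL17 Ab therefore go against the tissue label for these markers. Other hippocampal lists did not fall alike. Measured CA2 and CA3 markers summed to 368.2 to 498.3 CPM in the IgG libraries and to 359.0, 548.6 and 542.8 CPM in CIE+IL17 Ab 1, 2 and 3. For dentate granule cells the sums were 556.3 to 1334.3 CPM and 283.7, 518.8 and 707.4 CPM. Antibody treatment and these marker differences cannot be told apart in any comparison below that uses the CIE+IL17 Ab libraries. A list of 12 measured striatum markers summed to 1385.2 CPM in CIE+IgG 3 and 886.7 CPM in CIE+IL17 Ab 3, against 265.6 to 300.9 CPM in the other 7. These 2 libraries go against the tissue label for striatum markers, so CIE+IgG against Air+IgG is not free of such a difference either. In bulk tissue, fewer cells of a type and less RNA per cell cannot be told apart either.

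Collagen transcripts were a minor part of the hippocampal RNA. They took 0.0529% to 0.112% of all counts in a library. Their summed level was 722.1, 592.1 and 737.9 CPM in Air+IgG 1, 2 and 3, 800.8, 565.8 and 957.4 CPM in CIE+IgG, and 585.7, 1046.6 and 974.8 CPM in CIE+IL17 Ab. CIE+IgG 2, CIE+IL17 Ab 1 and Air+IgG 2 were low, CIE+IL17 Ab 2 was highest, and all 3 groups overlapped. Levels of different genes were compared after dividing by the length of their exons: the median collagen had 1.24 CPM per kb, against 5.93 for the 14628 genes with an annotated length, and 4 of 43 collagens lay above that median.

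Those 4 were Col9a3, Col25a1, Col4a2 and Col4a1, with mean levels of 14.7, 11.2, 8.17 and 7.21 CPM per kb over the 9 libraries. Their order was not fixed from library to library: Col9a3, a chain of the fibril-associated collagen IX, ran from 2.90 to 27.1 CPM per kb, and Col25a1 from 6.29 to 17.8, so these neighbours in the order overlapped. The type IV chains were far steadier, Col4a2 at 7.21 to 9.20 and Col4a1 at 5.59 to 8.50 CPM per kb. Next came Col6a1 (5.80 CPM per kb), a chain of the beaded filaments of collagen VI, Col8a2 (5.73), a chain of the collagen VIII network, and Col19a1 (4.20). At the other end were Col6a6 at 0.103 and Col2a1, the main collagen of cartilage, at 0.192 CPM per kb.

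**Figure D1:**
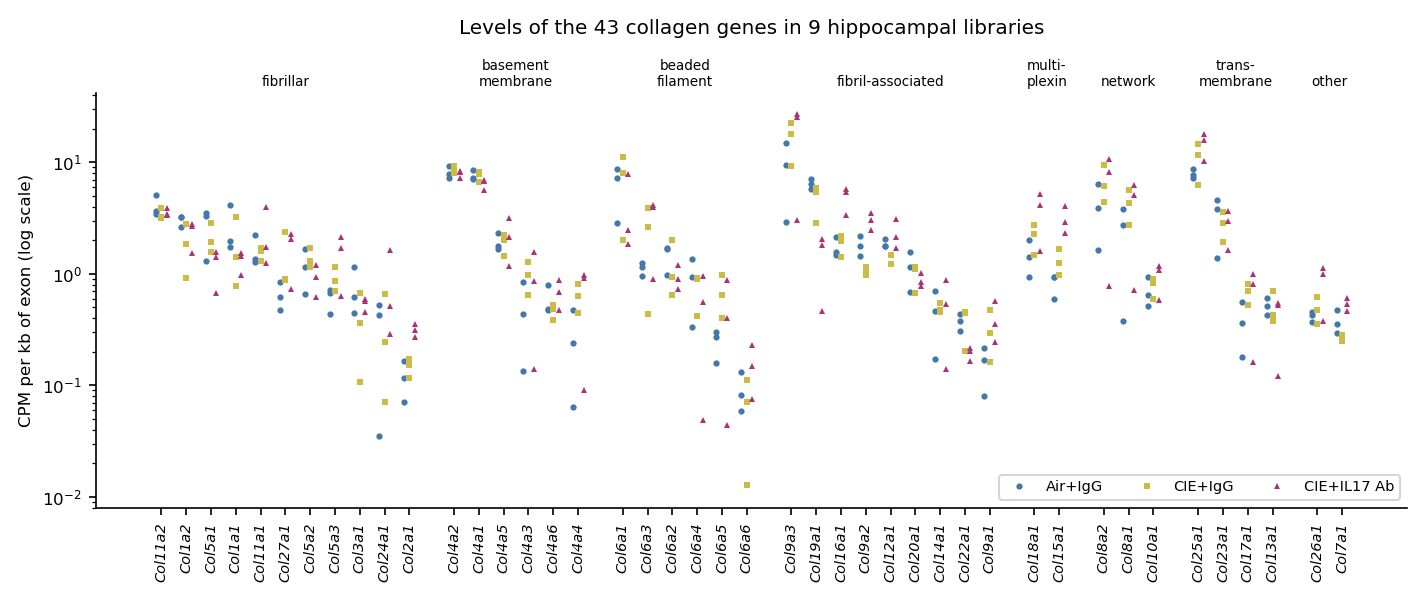
Level of each of the 43 collagen genes in each of the 9 libraries, in CPM per kb of exon on a log axis, grouped by class and ordered within a class by mean. Circles are Air+IgG, squares CIE+IgG and triangles CIE+IL17 Ab, 3 libraries each. Col4a1 and Col4a2 form tight groups of points, while Col9a3, Col8a1 and Col8a2 spread widely within groups.

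Among the fibrillar chains, both type I chains were lowest in CIE+IgG 2. Col1a1, which gives the first chain of the main collagen of bone and skin, had 11.4, 12.8 and 27.2 CPM in Air+IgG, 9.34, 5.15 and 21.2 in CIE+IgG, and 6.39, 10.1 and 9.49 in CIE+IL17 Ab. Its partner chain Col1a2 had 32.4, 40.2 and 40.3 CPM, 23.0, 11.4 and 34.9 CPM, and 19.0, 33.3 and 34.4 CPM in the same order. Neither gene was called in any comparison. Markers of leptomeningeal fibroblasts, cells of the meninges that make fibrillar collagen, summed to 339.5 to 352.8 CPM in Air+IgG, 187.0 to 320.0 CPM in CIE+IgG and 144.1 to 394.6 CPM in CIE+IL17 Ab, with CIE+IL17 Ab 1 and CIE+IgG 2 lowest. Their median log2 fold change was -1.04 in CIE+IgG against Air+IgG, where edgeR called 0 of 16 (9 at an unadjusted p under 0.05, 4 by DESeq2, 0 by limma-voom), and -0.82 in CIE+IL17 Ab against Air+IgG, where it called 5 of 16 lower. Their part in the type I values was not tested. The ratio of Col1a1 to Col1a2 per length varied from 0.523 to 1.28 between libraries.

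The major basement membrane pair behaved differently. Col4a1 and Col4a2 lie head to head on chromosome 8 with overlapping starts, and their protein chains assemble together around all brain vessels. Their ratio per length ran from 0.771 to 0.975. By group it was 0.926 to 0.975 in Air+IgG, 0.829 to 0.943 in CIE+IgG and 0.771 to 0.855 in CIE+IL17 Ab. Col4a2 varied less than any other member, 1.28-fold from the lowest to the highest library, with means of 53.3 ± 6.72, 56.4 ± 3.95 and 52.5 ± 3.98 CPM (SD, n = 3) in Air+IgG, CIE+IgG and CIE+IL17 Ab. Col4a1 had 56.6 ± 5.97, 56.4 ± 5.69 and 48.4 ± 5.82 CPM. Its antibody libraries, at 41.7 to 52.4 CPM, lay below those of Air+IgG, at 52.5 to 63.5 CPM. Such groups did not overlap for 35.3% of all genes. The log2 fold changes of Col4a1 and Col4a2 lay between -0.22 and 0.08 in the 3 comparisons, with standard errors of 0.109 to 0.123. None of the 6 basement membrane chains was called in any of them.

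The question of the first comparison, CIE+IgG against Air+IgG, is what CIE changed in mice given the control IgG. No collagen changed past the threshold. With edgeR's quasi-likelihood test and Benjamini-Hochberg adjustment over 14696 genes, 0 of 42 collagens had an adjusted p under 0.05, as did 0% of all genes; DESeq2 called 0 collagens (0.0408% of all genes) and limma-voom 0. At an unadjusted p under 0.05 stood 1 collagen, Col9a2, and 2.76% of all genes. The 2 groups did not overlap for 6 of 42 collagens (14.3%), against 9.44% of all genes. The collagens' median log2 fold change was 0.10, with 22 above 0 and 20 below, beside -0.01 over all genes.

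The 3 collagens with the smallest p in that comparison were Col9a2, Col15a1 and Col12a1. Col9a2, a second chain of collagen IX, had 4.44, 6.72 and 5.49 CPM in Air+IgG 1, 2 and 3, 3.01, 3.16 and 3.54 CPM in CIE+IgG, and 9.31, 10.8 and 7.70 CPM in CIE+IL17 Ab. The 3 groups did not overlap: every CIE+IgG library was lowest and every CIE+IL17 Ab library highest. From Air+IgG to CIE+IgG the log2 difference was -0.77 ± 0.219 (SE), with an adjusted p of 1 by edgeR. Col12a1, a fibril-associated collagen that binds type I fibrils, had 27.3, 31.1 and 26.9 CPM in Air+IgG, 22.3, 18.7 and 22.6 CPM in CIE+IgG, and 26.0, 46.9 and 32.7 CPM in CIE+IL17 Ab. The CIE+IgG libraries lay below all others, with a log2 difference of -0.42 ± 0.198 from Air+IgG (adjusted p = 1, edgeR).

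The second comparison, CIE+IL17 Ab against CIE+IgG, asks what the antibody changed under CIE. It called 3 collagens, all higher with the antibody: Col9a2, Col16a1 and Col15a1. That is 7.14% of the 42, beside 3.18% of all genes (1.78% higher and 1.41% lower), and with 3 genes the share rests on few members. The fibril-associated class held 2 of the 3 and the multiplexins 1; 0 of 11 fibrillar, 0 of 6 basement membrane, 0 of 5 beaded filament, 0 of 3 network and 0 of 4 transmembrane chains were called. The groups did not overlap for 8 collagens (19.0%), against 25.9% of all genes, and 8 had an unadjusted p under 0.05, against 22.3% of all genes. The collagens' median log2 fold change was 0.14, beside 0.02 over all genes.

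All 3 genes lie on chromosome 4, which holds 5 of the 43 members, but far apart: Col9a2 at 121039385 to 121055322, Col16a1 at 130047840 to 130099283 and Col15a1 at 47208161 to 47313167, each on the plus strand. Their promoters are printed with that of Col19a1, which moved the other way, because these 4 genes carry the differences below. Each line gives the stretch of the RefSeq window before the gene's start that lies outside annotated transcript ends (GRCm38.p6), 5′ to 3′ on the gene's strand, with 2 motifs in capitals where found: GGGCGG, the GC box, and CCAAT. The stretches are chr4:121039316-121039384 for Col9a2, chr4:130047590-130047839 for Col16a1, chr4:47207762-47208011 for Col15a1, all plus, and chr1:24587473-24587687 for Col19a1, minus.
Col9a2: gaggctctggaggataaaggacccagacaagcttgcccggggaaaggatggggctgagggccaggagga
Col16a1: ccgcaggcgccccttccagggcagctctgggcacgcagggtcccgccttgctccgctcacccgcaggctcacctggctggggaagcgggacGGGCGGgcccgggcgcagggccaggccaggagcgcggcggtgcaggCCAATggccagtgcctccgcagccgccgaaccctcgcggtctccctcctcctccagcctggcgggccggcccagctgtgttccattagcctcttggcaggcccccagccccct
Col15a1: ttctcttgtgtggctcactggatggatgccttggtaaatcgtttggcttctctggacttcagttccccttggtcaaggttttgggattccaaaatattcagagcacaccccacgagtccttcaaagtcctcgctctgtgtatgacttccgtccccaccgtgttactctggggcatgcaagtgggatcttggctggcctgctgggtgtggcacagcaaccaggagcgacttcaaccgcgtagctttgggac
Col19a1: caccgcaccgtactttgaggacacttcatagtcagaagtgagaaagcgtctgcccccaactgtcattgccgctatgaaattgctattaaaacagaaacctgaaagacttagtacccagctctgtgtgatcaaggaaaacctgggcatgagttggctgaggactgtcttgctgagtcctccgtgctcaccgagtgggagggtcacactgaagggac
These sequences differ in makeup. The 250 bases before the RefSeq start held 75.6% G and C for Col16a1, 60.4% for Col9a2, 53.6% for Col15a1 and 52.0% for Col19a1. The median was 52.4% over 32851 windows. For Col9a2 and Col19a1 the unprinted rest of these bases lies inside the gene as GENCODE places it. GGGCGG, searched on both strands, was found for Col16a1 and, in that unprinted rest and so after 121039385, for Col9a2. It was found in 21 of 34 collagens with a window (61.8%) and 32.7% of all windows. CCAAT was found for Col16a1, as in 13 of the 34 (38.2%) and 33.8% of all windows. TATAAA was found in 5 of the 34 and 12.4% of all windows, and TGANTCA in 1 (Col6a1) and 6.75%; neither lies before these 4 genes. A collagen counted if any of its windows held the string (37 windows for the 34), whereas the share of all windows counts each window singly. The 2 shares are therefore not the same measure. A match is a string of letters and was not tested as a binding site.

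Col9a2, with the values given above, was 2.86-fold higher with the antibody than in CIE+IgG: log2 1.52 ± 0.215 (SE), adjusted p = 0.022 (edgeR). It had 27 to 138 counts per library. Col16a1, a fibril-associated collagen of many connective tissues, had 10.5, 9.95 and 14.3 CPM in Air+IgG, 13.3, 9.60 and 14.8 CPM in CIE+IgG, and 38.8, 36.5 and 22.7 CPM in CIE+IL17 Ab. Every antibody library lay above all 6 IgG libraries, whose groups overlapped each other, and the log2 difference from CIE+IgG was 1.37 ± 0.244 (adjusted p = 0.0326, edgeR). Col15a1, a multiplexin of the basement membrane zone of vessels, muscle and nerve, had 5.96, 3.77 and 5.97 CPM in Air+IgG, 7.95, 6.20 and 10.5 CPM in CIE+IgG, and 18.3, 25.6 and 14.7 CPM in CIE+IL17 Ab. Its 3 groups did not overlap and lay in that ascending order, with a log2 difference of 1.25 ± 0.272 between the antibody group and CIE+IgG (adjusted p = 0.0468, edgeR) and of 0.65 between CIE+IgG and Air+IgG (adjusted p = 1).

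Col7a1, Col12a1 and Col19a1 missed the threshold in edgeR and passed it in DESeq2, which called 6 collagens and 10.1% of all genes. Col7a1, the collagen of the anchoring fibrils of skin, had 3.68, 4.84 and 3.03 CPM in Air+IgG, 2.58, 2.93 and 2.89 CPM in CIE+IgG, and 6.25, 5.56 and 4.75 CPM in CIE+IL17 Ab. The antibody libraries lay above all CIE+IgG libraries, with a log2 difference of 0.97 ± 0.229 (adjusted p = 0.0569 by edgeR, 0.023 by DESeq2). For Col12a1 the log2 difference was 0.74 ± 0.197 (adjusted p = 0.0752 and 0.017). Limma-voom called the same 3 collagens as edgeR and 4.01% of all genes.

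Col19a1, the neuronal fibril-associated collagen, lay the other way. It had 44.3, 39.7 and 48.8 CPM in Air+IgG, 37.3, 40.7 and 19.7 CPM in CIE+IgG, and 14.2, 3.21 and 12.5 CPM in CIE+IL17 Ab. Every antibody library was below every IgG library, and CIE+IgG 3 was the lowest of the 6 IgG libraries. The log2 difference from CIE+IgG was -1.75 ± 0.477 (adjusted p = 0.0807 by edgeR, 0.00407 by DESeq2).

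These calls depended on single libraries. Leaving out Air+IgG 3, CIE+IgG 1, CIE+IgG 2 or CIE+IL17 Ab 2 left 0 collagens called against CIE+IgG (7 or 8 at an unadjusted p under 0.05), leaving out Air+IgG 1 left Col9a2, and leaving out both Lars2-rich libraries left Col9a2 and added Col12a1. The log2 differences themselves moved little when 1 library was left out: 1.38 to 1.63 for Col9a2, 1.21 to 1.57 for Col16a1 and 0.99 to 1.46 for Col15a1.

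**Figure D2:**
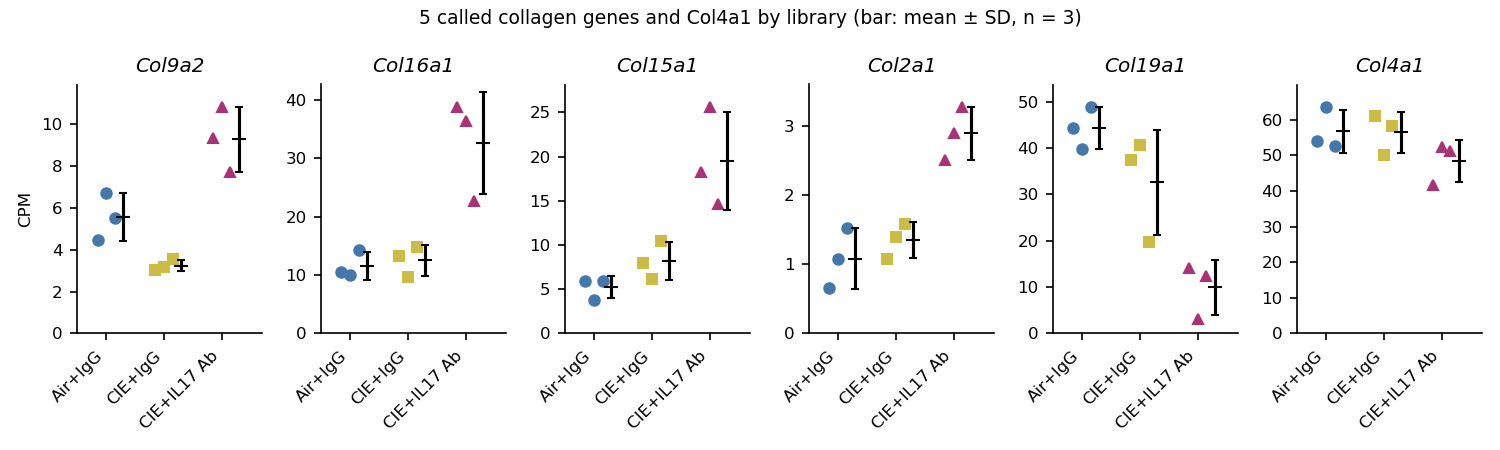
CPM of the 5 collagens called in any comparison, and of Col4a1, which was not called, by group. Each point is a library and the bars are the mean ± SD of 3. For Col9a2, Col16a1, Col15a1 and Col2a1 the antibody libraries lie above all others, for Col19a1 below all others, and the linear axes start at 0.

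The third comparison, CIE+IL17 Ab against Air+IgG, spans CIE and the antibody together and shares its samples with both others, so its values are not independent of theirs. It called 5 collagens: Col15a1, Col16a1, Col2a1 and Col9a2 higher and Col19a1 lower. That is 11.9% of the 42, beside 13.5% of all genes (6.83% higher and 6.71% lower), and so not above the background. The groups did not overlap for 10 collagens (23.8%), beside 35.3% of all genes, and 14 had an unadjusted p under 0.05, beside 32% of all genes. The median was 0.48, with 26 above 0 and 16 below, beside 0.01 over all genes.

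Col15a1 was 3.71-fold higher (log2 1.89 ± 0.283, adjusted p = 0.0114) and Col16a1 2.80-fold higher (log2 1.49 ± 0.246, adjusted p = 0.013) than in Air+IgG, by edgeR. Col9a2 was 1.68-fold higher (log2 0.75 ± 0.207, adjusted p = 0.0453). Col19a1 was 4.58-fold lower (log2 -2.20 ± 0.478, adjusted p = 0.0251). Thus Col9a2 stood on opposite sides of Air+IgG in the other 2 groups. It was below Air+IgG in CIE+IgG, where the difference did not pass the adjusted test, and above it with the antibody. The call above Air+IgG was lost in 12 of 20 alternative analyses. Among fits that left out 1 library, only that without CIE+IL17 Ab 3 kept it. For Col19a1, Col16a1 and Col15a1 the call against Air+IgG was lost in 6, 4 and 2 of 20. Col2a1, the fibrillar chain of cartilage, had 0.65, 1.08 and 1.52 CPM in Air+IgG, 1.07, 1.40 and 1.58 CPM in CIE+IgG, and 2.50, 2.90 and 3.27 CPM in CIE+IL17 Ab. The antibody libraries lay above the 6 others, on 18 to 37 counts against 6 to 17. Its log2 difference from Air+IgG was 1.40 ± 0.338 (adjusted p = 0.0313, edgeR) and that from CIE+IgG 1.09 ± 0.328 (adjusted p = 0.10). The Col2a1 call against Air+IgG was lost in 10 of 19 alternative analyses.

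A further 5 collagens passed the threshold in DESeq2 but not in edgeR. Col18a1, the multiplexin whose end fragment is endostatin, had 14.2, 6.59 and 9.94 CPM in Air+IgG, 16.0, 10.3 and 19.4 CPM in CIE+IgG, and 11.3, 36.2 and 29.2 CPM in CIE+IL17 Ab. Antibody library 1 lay within the range of the IgG libraries and the other 2 above it, with a log2 difference from Air+IgG of 1.32 ± 0.443 (adjusted p = 0.082 by edgeR, 0.0179 by DESeq2). Col5a3, a chain of collagen V, which joins type I fibrils and limits their width, had 4.88, 2.96 and 4.55 CPM in Air+IgG, 5.91, 4.80 and 7.92 CPM in CIE+IgG, and 4.31, 14.6 and 11.6 CPM in CIE+IL17 Ab. Again antibody libraries 2 and 3 were highest and library 1 was not (log2 difference 1.31 ± 0.416, adjusted p = 0.07 by edgeR). Col27a1, a fibrillar collagen of cartilage, had 10.9, 6.19 and 8.14 CPM in Air+IgG, 11.8, 11.5 and 30.8 CPM in CIE+IgG, and 9.45, 26.5 and 29.9 CPM in CIE+IL17 Ab. Here CIE+IgG 3 was the highest library of all, and the antibody group overlapped both others (log2 difference from Air+IgG 1.39 ± 0.517, adjusted p = 0.107 by edgeR).

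Col25a1, the transmembrane collagen of neurons, had 99.7, 94.4 and 112.9 CPM in Air+IgG, 151.8, 81.5 and 190.4 CPM in CIE+IgG, and 133.8, 230.8 and 207.7 CPM in CIE+IL17 Ab. All 3 antibody libraries lay above all 3 Air+IgG libraries, and CIE+IgG spanned both (log2 difference from Air+IgG 0.90 ± 0.303, adjusted p = 0.0831 by edgeR). Col5a1, the chain common to most collagen V, had 28.1, 11.0 and 29.8 CPM in Air+IgG, 16.2, 24.0 and 13.3 CPM in CIE+IgG, and 5.70, 12.0 and 13.3 CPM in CIE+IL17 Ab. It lay opposite to Col5a3 in the antibody group, with a log2 difference from Air+IgG of -1.14 ± 0.427 (adjusted p = 0.107 by edgeR, 0.0386 by DESeq2). DESeq2 called 10 collagens in this comparison, beside 19% of all genes, and limma-voom called the same 5 as edgeR, beside 14.2% of all genes. In edgeR, leaving out Air+IgG 3 left 0 collagens (8 at an unadjusted p under 0.05), Air+IgG 2 left Col15a1 alone, Air+IgG 1 or CIE+IL17 Ab 2 left 2, CIE+IgG 1 left 3, and leaving out CIE+IL17 Ab 1 raised the count to 9.

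**Figure D3:**
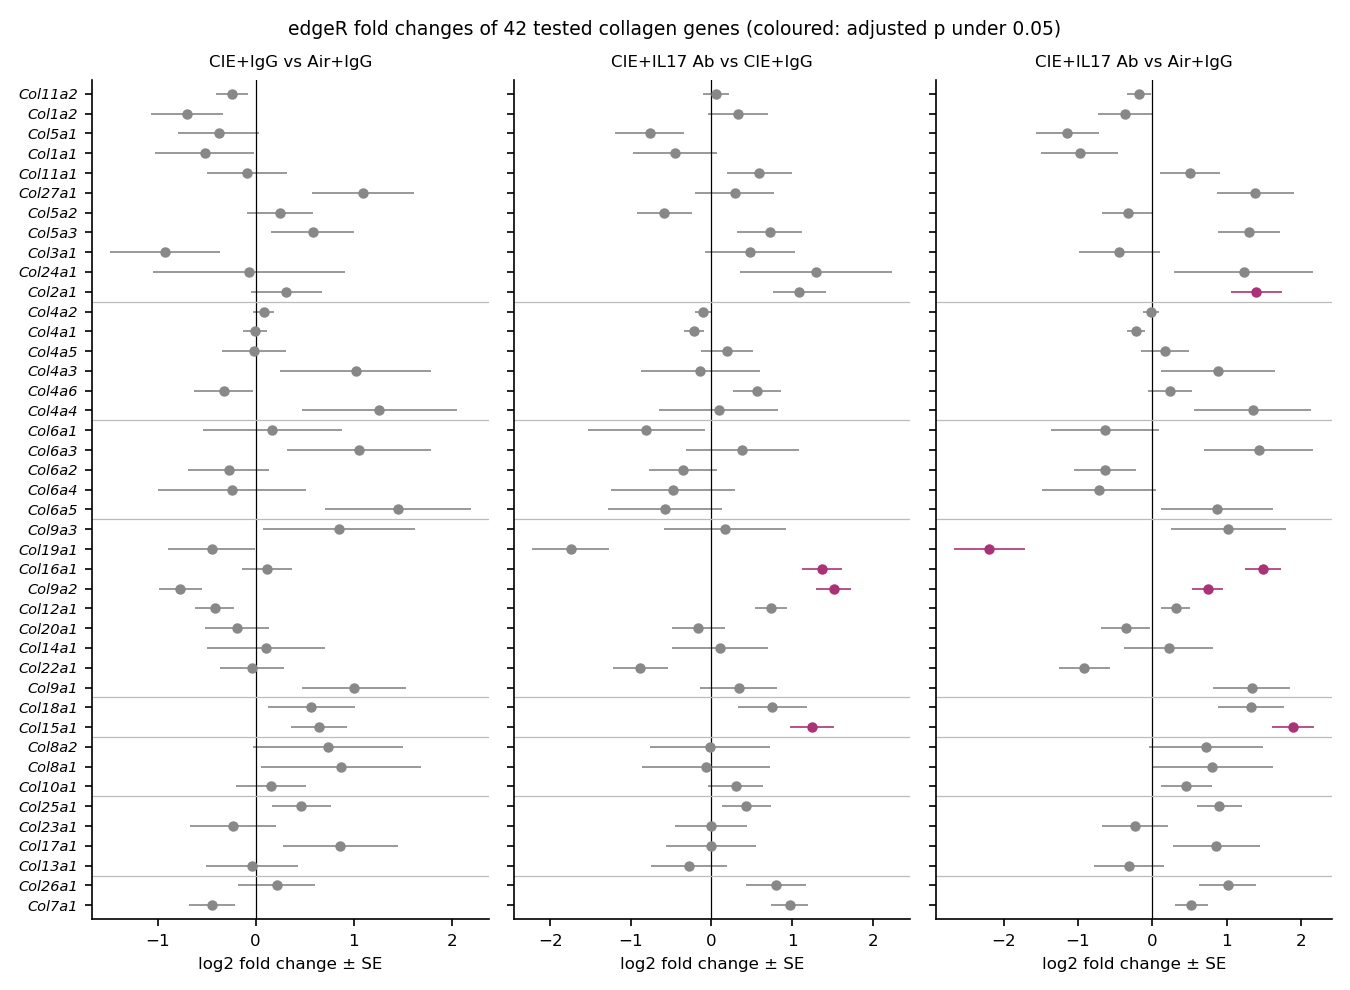
Log2 fold change ± SE of the 42 tested collagens in the 3 comparisons, by class, with coloured points where edgeR's adjusted p was under 0.05 (0, 3 and 5 genes from left to right). The coloured points are Col9a2, Col16a1 and Col15a1 in the middle panel, joined by Col2a1 and Col19a1 in the right panel, and most other members have wide error bars.

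A test for any difference among the 3 groups called Col15a1 and Col9a2 (adjusted p = 0.0191 each) and Col16a1 (adjusted p = 0.0199) with edgeR, beside 5.71% of all genes. DESeq2 called 7 collagens (14.9% of all genes) and limma-voom 4 (6.48%), which added Col19a1 in both. In edgeR's test, 0 collagens were called when Air+IgG 1, Air+IgG 3, CIE+IgG 1 or CIE+IL17 Ab 2 was left out (7 or 8 at an unadjusted p under 0.05), and 6 when CIE+IL17 Ab 1 was.

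Cell type markers also differed between the groups. For thalamus and habenula, 10 of 13 tested markers were called higher against CIE+IgG and 13 of 13 against Air+IgG; Pou4f1, which defines the medial habenula, was at 0 counts in Air+IgG 1 and 2 and CIE+IgG 1 and 2, and above 0 in the other 5 libraries. For CA1, 4 of 9 were called lower against CIE+IgG and 6 of 9 against Air+IgG. Of the IgG libraries, CIE+IgG 3 had the lowest CA1 sum, 576.3 CPM, as it had the lowest Col19a1. Oligodendrocyte markers summed to 4181 to 4748 CPM in Air+IgG, 4772 to 7535 CPM in CIE+IgG and 6351 to 7744 CPM in CIE+IL17 Ab, with 9 of 12 called higher against Air+IgG and 0 of 12 against CIE+IgG (edgeR, 1 with an unadjusted p under 0.05; 0 by DESeq2). Interneuron markers summed to 1098 to 1269, 1138 to 1404 and 672.5 to 1407 CPM in the same order. Antibody library 2, the lowest, was also the lowest for Col19a1. The highest sums, 1407 CPM in CIE+IL17 Ab 1 and 1404 CPM in CIE+IgG 3, went the other way. Col19a1 had 14.2 and 19.7 CPM there, below the 37.3 to 48.8 CPM of the other IgG libraries. Of the 12 interneuron markers, edgeR called 4 lower against Air+IgG and 1 against CIE+IgG. Endothelial markers, at 353.0 to 441.8 CPM in the IgG libraries and 452.2 to 515.6 with the antibody, had 1 of 14 called higher against Air+IgG and 0 against CIE+IgG (3 at an unadjusted p under 0.05, 1 by DESeq2). Against Air+IgG edgeR also called 2 of 13 pericyte and smooth muscle and 3 of 9 oligodendrocyte precursor markers higher, 3 of 12 microglia and 1 of 12 dentate granule cell markers lower, 3 of 11 CA2 and CA3 markers higher and 1 lower, and 1 of 12 astrocyte markers each way. Against CIE+IgG it called 2 microglia and 1 dentate granule cell marker lower, 1 astrocyte marker higher, and 1 CA2 and CA3 marker each way. Astrocyte markers summed to 6999.6 to 8042.6 CPM in the IgG libraries and 5267.3 to 6289.0 CPM with the antibody. Their median log2 fold change against Air+IgG was nonetheless 0.22. Microglia markers summed to 399.2 to 462.5 CPM and 340.7 to 357.1 CPM. No ependymal or striatum marker was called by edgeR. With the antibody against Air+IgG, 8 of 12 ependymal markers had an unadjusted p under 0.05 (edgeR) and 6 passed in DESeq2. For striatum these numbers were 3 and 3 of 12. In CIE+IgG against Air+IgG the striatum markers' median log2 fold change was 1.62. There the excess lay in CIE+IgG 3, which summed to 1385.2 CPM against 267.1 and 265.6 CPM in CIE+IgG 1 and 2. In CIE+IgG against Air+IgG edgeR called no marker of any list. At an unadjusted p under 0.05 (edgeR) stood 7 of 12 oligodendrocyte markers (median log2 fold change 0.42). So did 4 of 13 pericyte and smooth muscle markers (median -0.43) and 3 of 9 oligodendrocyte precursor markers (median 0.11), beside 2.76% of all genes. Apart from the leptomeningeal fibroblasts above, no other list had more than 1. The part of these markers in the collagen differences was not tested.

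A second pattern ran within the groups rather than between them. Col8a1 and Col8a2, the chains of the collagen VIII network of endothelial and corneal basement membranes, had 29.9, 2.96 and 21.3 CPM and 28.7, 7.40 and 17.6 CPM in Air+IgG 1, 2 and 3. In CIE+IgG they had 34.2, 21.3 and 44.6 CPM and 27.5, 19.7 and 42.7 CPM, and in CIE+IL17 Ab 5.56, 49.4 and 39.6 CPM and 3.47, 47.8 and 36.5 CPM. Air+IgG 2 and CIE+IL17 Ab 1, the Lars2-rich libraries, were lowest for both. Col9a3 had the same low pair, with 57.9, 11.2 and 36.6 CPM in Air+IgG, 68.8, 36.1 and 86.5 CPM in CIE+IgG, and 11.7, 104.5 and 97.6 CPM in CIE+IL17 Ab. The same pair was lowest for Col4a3 and Col4a4, chains of specialised basement membranes such as that of the kidney glomerulus, which lie head to head on chromosome 1 with 71 bases between them. Col4a3 ran from 1.34 CPM in Air+IgG 2 and 1.39 in CIE+IL17 Ab 1 to 15.7 in CIE+IL17 Ab 2, and Col4a4 from 0.67 and 0.97 to 10.3 CPM in the same libraries.

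In all, these 2 libraries were the lowest pair for 12 of 43 collagens (27.9%) and for 4.56% of the 14696 tested genes, a pair chosen after the values were seen. The 12 were Col4a3, Col4a4, Col5a1, Col5a2, Col5a3, Col6a5, Col8a1, Col8a2, Col9a3, Col14a1, Col17a1 and Col23a1. The summed level of 12 choroid plexus markers was lowest in the same libraries, 530.0 CPM in Air+IgG 2 and 91.2 CPM in CIE+IL17 Ab 1, against 2473 to 7401 CPM in the other 7, and Steap1 was at 0 counts in CIE+IL17 Ab 1. None of those 12 markers was called in any comparison by edgeR (1 against Air+IgG with the antibody had an unadjusted p under 0.05 and was called by DESeq2), and their part in the collagen values was not tested. Col9a3 was low in these libraries and Col9a2 was not, and their ratio per length ran from 1.01 to 19.6.

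**Figure D4:**
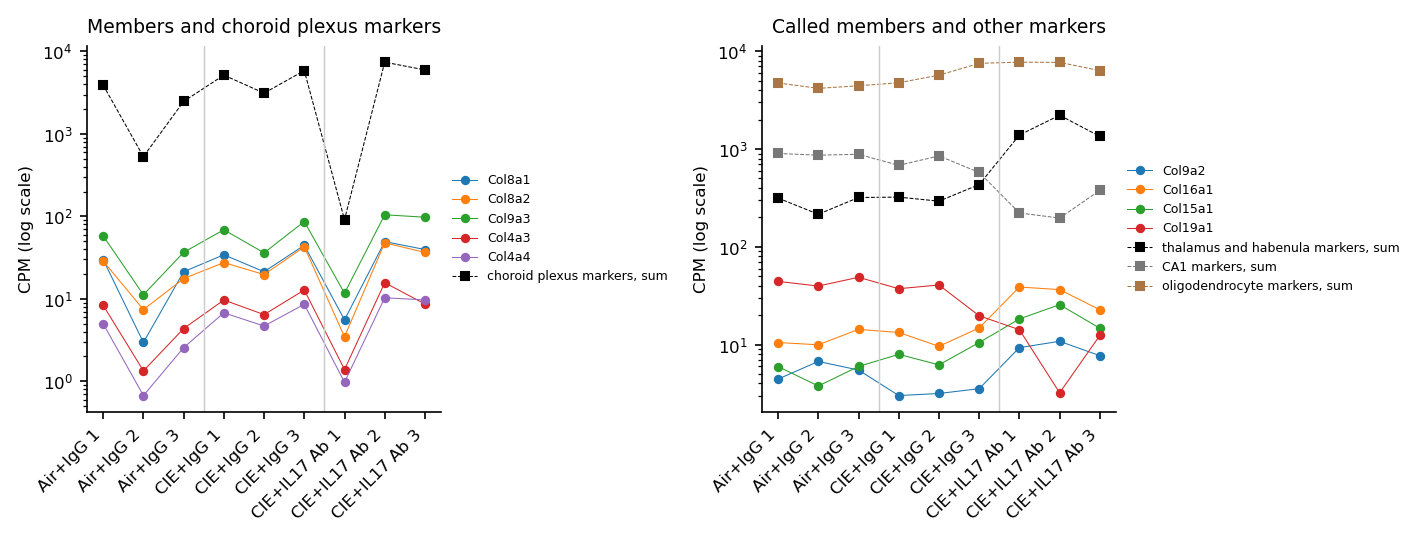
CPM on a log axis in the 9 libraries, with collagens as circles and sums of marker lists as squares; thin lines only guide the eye, since replicates have no order. Left, Col8a1, Col8a2, Col9a3, Col4a3 and Col4a4 with choroid plexus markers, all low in Air+IgG 2 and CIE+IL17 Ab 1. Right, Col9a2, Col16a1, Col15a1 and Col19a1 with thalamus and habenula, CA1 and oligodendrocyte markers.

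Ratios per length were also taken for other pairs. That of Col4a3 to Col4a4 was 1.46 to 2.13 in 8 libraries and 0.949 in CIE+IL17 Ab 3. The chains of collagen VI, which forms beaded filaments around many cells, spread widely: Col6a1 had 8.06 to 48.7 CPM and Col6a2 5.38 to 16.7 CPM, and their ratio per length ran from 2.54 to 8.69. Col6a3, the third main chain, had 11.4 to 15.0 CPM in Air+IgG, 5.27 to 46.4 in CIE+IgG and 10.7 to 49.5 in CIE+IL17 Ab. None of the 5 tested collagen VI chains was called. Col24a1, a fibrillar collagen of developing bone, varied most of all members, 46.0-fold between 0.27 CPM in Air+IgG 2 and 12.4 CPM in CIE+IL17 Ab 1, on 2 to 89 counts. Col9a1, on chromosome 1 tail to tail with Col19a1 at 9205 bases, had 0.40 to 1.08 CPM in Air+IgG and 1.25 to 2.90 CPM with the antibody, and so lay in the opposite direction to its neighbour, without being called.

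The members not yet described were not called by edgeR in any comparison. Among the fibrillar chains, Col11a2, a cartilage chain, was steady at 21.7 to 35.2 CPM, while its partner Col11a1 had 16.0 to 28.5 CPM in 8 libraries and 50.6 CPM in CIE+IL17 Ab 1. Col3a1, the fibrillar collagen of vessel walls, ran from 1.05 CPM in CIE+IgG 2 to 11.4 CPM in Air+IgG 2, and Col5a2, which pairs with Col5a1, from 5.98 to 16.2 CPM. These extremes fell in single libraries and did not follow the groups. The X-linked basement membrane chains Col4a5 and Col4a6, head to head at 1308 bases, had 7.92 to 21.1 and 3.04 to 6.97 CPM, each highest in CIE+IL17 Ab 2. Of the transmembrane collagens other than Col25a1, Col23a1 had 7.93 to 26.2 CPM, Col17a1, the hemidesmosome collagen of skin, 0.97 to 6.03 CPM, and Col13a1, a collagen of the neuromuscular junction, 0.56 to 3.22 CPM. All 3 overlapped between all groups.

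Among the fibril-associated members, Col20a1 had 3.44 to 8.07 CPM, Col14a1 0.97 to 6.22 CPM, and Col22a1, a collagen of tissue junctions, 2.82 to 4.03 CPM in Air+IgG, 1.86 to 4.19 CPM in CIE+IgG and 1.53, 1.88 and 2.0 CPM in CIE+IL17 Ab 1, 2 and 3. For Col22a1 the antibody libraries lay below all Air+IgG libraries and had values on both sides of CIE+IgG 3. Col26a1 had 3.03 to 3.69 CPM in Air+IgG, 2.93 to 5.03 CPM in CIE+IgG and 3.06, 9.24 and 8.12 CPM in CIE+IL17 Ab 1, 2 and 3. Col10a1, a network collagen of growth plate cartilage, stayed between 1.61 and 3.68 CPM. The beaded filament chains Col6a4 and Col6a5 were lowest in CIE+IL17 Ab 1, at 0.42 CPM each, and reached 11.6 CPM in Air+IgG 3 and 9.13 CPM in CIE+IgG 3.

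Genes that make, bind and remove collagen were looked at by list. In CIE+IgG against Air+IgG, edgeR called none of 20 biosynthesis, 11 crosslinking and processing, 9 receptor, 13 fibril partner, 16 basement membrane partner and 13 breakdown genes (10 of these 82 at an unadjusted p under 0.05; 2 by DESeq2, 0 by limma-voom). The smallest p among them was that of Fn1, fibronectin, at 107.1 ± 16.3 CPM in Air+IgG and 66.2 ± 9.05 CPM in CIE+IgG (SD, n = 3; log2 -0.69 ± 0.13, adjusted p = 1 by edgeR and 0.0206 by DESeq2). Fmod, fibromodulin, which binds collagen fibrils and is also one of the leptomeningeal fibroblast markers above, had 17.9 ± 4.66 and 5.85 ± 2.62 CPM (log2 -1.60 ± 0.336, adjusted p = 1 by edgeR and 0.0224 by DESeq2). DESeq2 called 6 genes of all in that comparison, Fn1 and Fmod among them. With the antibody, P4ha1, a subunit of the prolyl hydroxylase that stabilises the collagen helix, fell from 65.6 ± 6.31 CPM in CIE+IgG to 45.3 ± 2.12 CPM (log2 -0.54 ± 0.097, adjusted p = 0.0326), and Fbln5, an elastic fibre protein, rose from 4.56 ± 1.24 to 12.0 ± 3.79 CPM (log2 1.39 ± 0.295, adjusted p = 0.0448). These were 2 of the 82 list genes (2.44%), beside 3.18% of all genes. P4ha1 lost its call in 9 and Fbln5 in 10 of 20 alternative analyses. DESeq2 called 9 of the 82, beside 10.1% of all genes, and limma-voom 5, beside 4.01%. Adamts2, Pxdn and Mmp17 passed in both these tools but not in edgeR. At an unadjusted p under 0.05 (edgeR) stood 19 of the 82, beside 22.3% of all genes.

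Against Air+IgG, 2 of 9 receptors were higher with the antibody, Adgrg1, which binds collagen III, and Ddr1, a receptor kinase for collagen (log2 0.87 and 0.76). Among fibril partners 2 of 13 rose and 2 fell: Sparc, a collagen-binding glycoprotein, went from 148.1 ± 24.0 to 493.6 ± 242.2 CPM and Fbln5 also rose, whereas Fn1 and Fmod fell (log2 -0.92 and -1.16). Of the 13 breakdown genes, the metalloproteinase Mmp15 and the inhibitor Timp3 rose (log2 1.46 and 0.73) and Mmp16 and Mmp17 fell (log2 -0.85 and -1.80). Among 16 basement membrane partners 1 fell, Pxdn, the peroxidase that crosslinks collagen IV (log2 -0.91), and among 20 biosynthesis genes P4ha1 again fell (log2 -0.44). Of 11 crosslinking and processing genes 0 were called (edgeR), with the smallest p for Adamts3, at an adjusted p of 0.138. Adjusted p-values of the called genes lay between 0.0105 and 0.0488. Together 6 of the 82 list genes were higher and 6 lower (14.6%), beside 13.5% of all genes (6.83% higher and 6.71% lower). DESeq2 called 16 of the 82, beside 19% of all genes, and limma-voom 12, beside 14.2%. At an unadjusted p under 0.05 (edgeR) stood 30, beside 32% of all genes. Of 20 alternative analyses, the call was lost in 2 for Fn1, in 6 for Adgrg1, Mmp15 and Pxdn, in 7 for P4ha1, Fbln5, Sparc and Mmp16, in 9 for Ddr1, in 10 for Fmod, in 11 for Mmp17 and in 12 for Timp3.

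Counts of some members may hold reads of other genes, since the sources used here do not state whether counting used strand. Exons of 13 of the 43 overlap another gene: Col4a1, Col4a2, Col4a3, Col5a1, Col6a4, Col6a6, Col9a3, Col10a1, Col15a1 and Col22a1 on the opposite strand, and Col3a1, Col7a1 and Col20a1 on the same strand. Further, 8 of 43 members had counts that were not whole, as the estimation gives where it divides a read between genes. Of the genes called by edgeR, Col15a1 is among the 13 and Col19a1 among the 8.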

How the data were processed

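PolyA-selected, strand-specific RNA libraries of 9 mouse hippocampi, 3 per group, were sequenced, and the authors deposited 1 table of expected counts per gene, made with STAR 2.5.1a and RSEM 1.3.0 on GRCm38 per the submitters' processing notes. Which annotation release, counting strand and filter they used is not given in the sources used here. Of the 14779 genes, 14628 matched GENCODE M21.

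Counts were rounded, filtered (filterByExpr, minimum count 10) and scaled by TMM. Group differences were tested with edgeR 4.0.16 (quasi-likelihood, all 9 libraries in 1 fit, R 4.3.3), with Benjamini-Hochberg adjustment over 14696 genes and a threshold of 0.05. DESeq2 1.42.0, limma-voom (limma 3.58.1), other filters and scalings, blocks and left-out libraries were alternatives. The fits were run on simulated counts, drawn independently for each gene from the fitted means and spreads with known changes added. That simulation held no difference in tissue makeup between libraries, so it cannot show how the fits behave under one. Totals of 7372658 to 11894628 counts leave members under about 1 CPM on few counts. Collagens, classes and lists were chosen with earlier results of these data known. All 9 values are given for members called by any tool or among the 3 smallest p of a comparison, and for lists up to 4 called genes, or those of smallest p. Genes named for levels, chain pairs or extreme libraries were chosen after their values were seen.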

Additional observations from a re-analysis of the deposited data

How the results depend on the processing

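No alternative called a collagen in CIE+IgG against Air+IgG, where edgeR also called 0 of all genes and DESeq2 6. Collagens called in CIE+IL17 Ab against CIE+IgG, CIE+IL17 Ab against Air+IgG and among the 3 groups numbered 3, 5 and 3. At an adjusted p under 0.10 they numbered 6, 8 and 6, with DESeq2 6, 10 and 7, and within the libraries whose labels end in 54 to 60 0, 0 and 0 (8, 5 and 7 at an unadjusted p under 0.05, edgeR, 2 libraries a group). The remaining labels, 37 to 39, hold 1 library a group and give no test. Fitting only the groups compared left 0 against CIE+IgG (edgeR, 7 with an unadjusted p under 0.05). Same-numbered libraries did not deviate together (correlations of -0.27 to 0.249, with 0 libraries best matched by their own number). These values gave no sign that the numbers pair the mice, but with 3 libraries a group cannot exclude it. A replicate block left 0, 2 and 0 collagens (edgeR, with 8 and 7 at an unadjusted p under 0.05 for the first and last). Leaving out 1 library gave 0 to 4, 0 to 9 and 0 to 6 collagens. The collagens' median log2 fold change against CIE+IgG ran from -0.06 without CIE+IL17 Ab 2 to 0.47 without CIE+IL17 Ab 1. Dropping both Lars2-rich libraries, an alternative chosen after seeing the data, gave 2, 6 and 2. Over all genes the 3 counts were 468, 1990 and 839; they became 1293, 3453 and 1918 at 0.10, 1481, 2799 and 2192 with DESeq2, 14, 571 and 16 with the replicate block, 1, 2 and 2 in libraries 54 to 60, 377, 1067 and 316 without the Lars2-rich libraries, and 0 to 1313, 0 to 2305 and 21 to 1335 with 1 library left out. Only the groups compared gave 1 and 1192, and a block for the label numbers 776 against CIE+IgG. Of 59 gene values, 58 kept their direction in every alternative. These genes were picked for a call or a small p in these same data. The alternatives reuse most of the same libraries, so a kept direction was likely beforehand and adds little. The exception, Col16a1 in CIE+IgG against Air+IgG, was 0.12, and ran from -0.02 without CIE+IgG 3 to 0.30 without Air+IgG 3. Where libraries were left out, fewer samples were fitted; for the other changes the cause was not tested. Depth limits members on few counts, such as Col2a1 and Col9a1.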
